A study of Mus musculus with 29 samples.

Results

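The FAM19A family, also named TAFA, consists in the mouse of 5 genes, Fam19a1 to Fam19a5, each encoding a small protein that is secreted and resembles the CC chemokines. The members were found by their symbols in the RNA-seq table, where they make up 5 of 24062 genes, and all 5 passed the filter on low counts that left 14024 genes. The family was selected on RNA values of these same libraries, so its RNA levels are given below as a description with no test, and tests are reported only for chromatin accessibility around the members and for genes of other families.

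FAM19A proteins are made mainly in the nervous system. Fam19a4 is best known from sensory neurons of the dorsal root ganglion that respond to light touch, where the secreted protein dampens pain after injury. Members have been reported to bind neurexins, the presynaptic adhesion molecules that also bind neurexophilins, neuroligins, LRRTMs and calsyntenins, and separate members have been reported to act on receptors such as Gpr1, Fpr1, Fpr2, S1pr2 and Lrrc4b. In the retina, bipolar cells carry signals from photoreceptors to the inner retina. ON bipolar cells depolarize to light increments through the receptor Grm6, and OFF bipolar cells respond to light decrements through ionotropic glutamate receptors.

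The libraries came from cells sorted by fluorescence from papain-dissociated mouse retina. All bipolar cells (pan-BC) were sorted by GFP from Otx2-GFP+/- mice, which are heterozygous for GFP knocked into the Otx2 locus. ON-BC and OFF-BC were separated in Otx2-GFP+/-; Grm6-YFP+/+ mice, in which the Grm6 promoter drives YFP, and OFF-BC were sorted again. The study holds that rod bipolar cells likely contribute much of the ON-BC signal. In any comparison of OFF-BC with ON-BC, the response to light thus cannot be told apart from the second sort or from rod bipolar cells. Bipolar mice were 42 to 48 days old for RNA-seq and 42 to 46 days old for ATAC-seq, the assay of open chromatin by transposase insertion. For the pan-BC of the ATAC-seq the sample labels give Grm6-YFP+/+, whereas another sample listing of the study gives Grm6-YFP-/-. Rods came from Nrl-eGFP mice, and Nrl-eGFP; Nrl-/- photoreceptors, which take on a blue cone fate, stand in for blue cones and are called blue cones below. Green cones, profiled by ATAC-seq only, came from Opn1mw-GFP mice. All photoreceptor mice were 56 days old and belonged to an earlier study, so that cell class cannot be told apart from age, strain and study in any comparison of bipolar cells with photoreceptors. RNA-seq comprised 15 libraries, 3 for each of 5 populations, with 12329548 to 26266746 reads counted in genes (median 15569580). ATAC-seq comprised 12 libraries in the table of regions, 2 for each of 6 populations, with 4176776 to 12345845 reads in regions (median 6648830). A further 2 libraries of green cones sorted again had peak lists only.

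Markers of the sorted populations were summed in each library. The summed normalized counts of 6 ON bipolar genes were 110613 to 126702 in ON-BC and 6721 to 11593 in OFF-BC. Of 6 genes listed as OFF bipolar markers, Tacr3, Grik1, Erbb4 and Nnat had ON-BC means of 0.625% to 4.35% of their OFF-BC means, Cabp5 had 52.7%, and Vsx1 went against the list with an ON-BC mean of 339% of that in OFF-BC. Other cell types left low counts in the 9 bipolar libraries, with sums of 62.6 to 386 for 6 ganglion cell genes, 22.2 to 119 for 4 horizontal cell genes, 1173 to 2225 for 5 Müller glia genes and 20.2 to 49.0 for 4 endothelial genes. The 4 microglial genes summed to 49.2 to 150 in OFF-BC and to 25.7 to 36.1 in ON-BC, and 7 amacrine cell genes to 923 to 1113 in OFF-BC and to 327 to 483 in ON-BC. The 5 bipolar genes summed to 128670 to 136960 in ON-BC, 120066 to 142874 in pan-BC, 84241 to 99987 in OFF-BC, 35730 to 41808 in blue cones and 7204 to 8052 in rods. The 7 rod genes summed to 3599 to 17885 in OFF-BC, 20201 to 25411 in ON-BC and 33209 to 41802 in pan-BC. The part of any of these in the levels of Fam19a genes was not tested. In bulk samples such as these, fewer cells of a type and less RNA per cell cannot be told apart.

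In the RefSeq annotation of GRCm38 (mm10), where the family carries the names Tafa1 to Tafa5, 4 of the members are long genes. Fam19a1 spans 544.0 kb at chr6:96113154-96657198 on the plus strand, and Fam19a4 spans 229.2 kb at chr6:96831209-97060411 on the minus strand. These 2 genes are neighbours that point towards each other, with 174.0 kb between their 3′ ends. Fam19a2 spans 477.1 kb at chr10:123264076-123741204 on the plus strand, and Fam19a5 spans 215.1 kb at chr15:87544299-87759364 on the plus strand. Fam19a3 is the short member, with 10.1 kb at chr3:104767405-104777547 on the minus strand.

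The regulatory sequences on which the chromatin results below turn are shown first. Regions of the table are 201 bp wide and are numbered here along each gene by coordinate. Each sequence is the GRCm38 reference, 5′ to 3′ on the strand of its gene. Capitals mark CANNTG, the E-box bound by basic helix-loop-helix factors, and TAATCC on either strand, the core bound by K50 homeodomain factors such as CRX and OTX2. The promoter regions are shown only as far as they lie upstream of the annotated start. The first 3 are the promoter region of Fam19a4 at chr6:97060412-97060596, its intronic region 7 at chr6:97014244-97014444 and its region 1 at chr6:96678563-96678763 between the ends of Fam19a4 and Fam19a1, all 3 more accessible in OFF-BC than in ON-BC.
Fam19a4 region 9: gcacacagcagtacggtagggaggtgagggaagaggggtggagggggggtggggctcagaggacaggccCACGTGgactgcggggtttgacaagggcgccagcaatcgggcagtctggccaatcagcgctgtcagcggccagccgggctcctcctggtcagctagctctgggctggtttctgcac
Fam19a4 region 7: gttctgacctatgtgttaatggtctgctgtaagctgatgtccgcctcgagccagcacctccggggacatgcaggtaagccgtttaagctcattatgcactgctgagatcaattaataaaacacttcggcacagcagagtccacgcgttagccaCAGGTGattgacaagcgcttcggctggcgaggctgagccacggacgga
Fam19a4 region 1: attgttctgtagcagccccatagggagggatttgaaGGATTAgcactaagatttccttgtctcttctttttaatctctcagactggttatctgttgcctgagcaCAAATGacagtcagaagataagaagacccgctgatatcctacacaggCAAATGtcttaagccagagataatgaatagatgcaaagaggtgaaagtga

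The intronic region 5 of Fam19a5 at chr15:87582161-87582361 was accessible in OFF-BC and cones and had no read in ON-BC, whereas the intronic region 4 of Fam19a2 at chr10:123267327-123267527 showed the opposite order of OFF-BC and ON-BC.
Fam19a5 region 5: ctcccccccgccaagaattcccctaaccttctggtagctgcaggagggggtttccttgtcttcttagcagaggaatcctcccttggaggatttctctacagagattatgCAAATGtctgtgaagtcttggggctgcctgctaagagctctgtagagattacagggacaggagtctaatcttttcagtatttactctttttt
Fam19a2 region 4: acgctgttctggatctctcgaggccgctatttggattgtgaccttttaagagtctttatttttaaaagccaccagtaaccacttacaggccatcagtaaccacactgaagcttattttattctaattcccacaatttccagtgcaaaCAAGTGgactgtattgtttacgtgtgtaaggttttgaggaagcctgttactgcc

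The promoter regions of Fam19a3 at chr3:104777548-104777642 and of Fam19a2 at chr10:123263891-123264075 are shown because the RNA of both genes differed widely between populations, and the intronic region 9 of Fam19a3 at chr3:104773386-104773586 because it had the highest mean count of the regions of that gene.
Fam19a3 region 10: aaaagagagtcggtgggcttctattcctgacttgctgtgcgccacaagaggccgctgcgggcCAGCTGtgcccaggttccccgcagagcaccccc
Fam19a3 region 9: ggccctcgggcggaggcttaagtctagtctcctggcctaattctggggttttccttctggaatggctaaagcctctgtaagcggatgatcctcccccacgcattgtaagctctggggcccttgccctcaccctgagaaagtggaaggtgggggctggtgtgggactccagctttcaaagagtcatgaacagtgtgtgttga
Fam19a2 region 2: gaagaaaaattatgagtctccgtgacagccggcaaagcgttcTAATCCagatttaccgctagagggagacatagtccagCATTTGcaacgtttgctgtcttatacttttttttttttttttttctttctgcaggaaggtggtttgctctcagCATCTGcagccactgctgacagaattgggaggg

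The RNA of the family was highest in OFF-BC for 4 of the 5 members and in blue cones for Fam19a3, on the scale of normalized counts (reads divided by a size factor per library). Fam19a3 had the highest level per exon length. Its level in RPKM (reads per kb of exon, scaled to library depth) was 242 in OFF-BC, rank 342 of 22516 genes, and 254 in blue cones, rank 172. Fam19a4 followed with 61.4 in OFF-BC (rank 1365), then Fam19a2 with 5.42, Fam19a5 with 1.48 and Fam19a1 with 0.622. In pan-BC the order by this measure was the same, from 84.7 for Fam19a3 and 13.8 for Fam19a4 to 0.342 for Fam19a1.

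**Figure D1:**
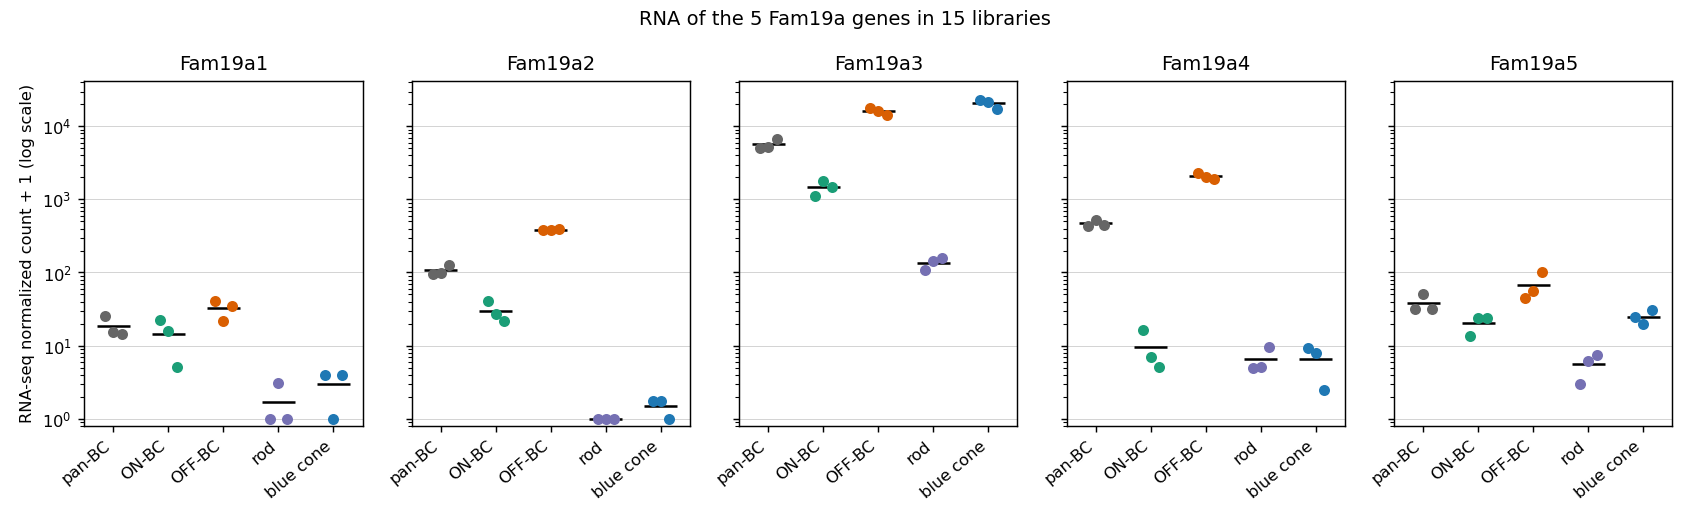
RNA-seq normalized counts plus 1 (log scale) of each Fam19a gene in the 15 libraries, by sorted population; points are libraries and bars are means of 3 libraries. Fam19a3 reached 14542 to 17898 in OFF-BC and 17202 to 23170 in blue cones, whereas Fam19a4 was high in OFF-BC (1890 to 2322) and near 0 in ON-BC, rods and blue cones.

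Fam19a3 RNA was abundant in OFF-BC and in blue cones. The OFF-BC libraries had 17898, 16076 and 14542 normalized counts, the ON-BC libraries 1121, 1815 and 1460, and the pan-BC libraries 5032, 5184 and 6818. Blue cones had 23170, 21746 and 17202, and rods had 109, 141 and 157. OFF-BC and blue cones overlapped, and every other pair of neighbours in the order blue cone, OFF-BC, pan-BC, ON-BC, rod was apart. The mean in OFF-BC was 16172 ± 1680 (SD, n = 3) against 1465 ± 347 in ON-BC, a ratio of 11.0. The log2 difference, taken throughout on log2(normalized count + 1), was 3.49 with a standard error of 0.18. Rod minus blue cone was -7.25 log2 units.

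Fam19a4 RNA, the touch-neuron member, had the largest ratio of OFF-BC to ON-BC among the 5 members. The OFF-BC libraries had 2322, 2023 and 1890 normalized counts and the pan-BC libraries 437, 526 and 445. The other libraries were low, with 15.5, 5.88 and 4.10 in ON-BC, 3.88, 4.10 and 8.65 in rods, and 8.27, 6.83 and 1.48 in blue cones. ON-BC, rods and blue cones overlapped, and OFF-BC and pan-BC stood apart from them and from each other. The OFF-BC mean of 2079 ± 221 was 245 times the ON-BC mean of 8.49 ± 6.12, a log2 difference of 7.96 with a standard error of 0.48.

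Fam19a2 RNA was found in bipolar cells and was hardly detected in photoreceptors at this depth. The OFF-BC libraries had 378, 384 and 396 normalized counts, the pan-BC libraries 95.7, 97.9 and 125, and the ON-BC libraries 39.2, 26.5 and 20.5. No read was counted in rods, and 2 reads in all were counted over the 3 blue cone libraries. The bipolar populations did not overlap each other. The OFF-BC mean of 386 ± 9.30 was 13.4 times the ON-BC mean of 28.7 ± 9.55, a log2 difference of 3.75 with a standard error of 0.35. Against rods, pan-BC was at least 34.5-fold higher when 3 reads per library are taken as the floor, and against blue cones the pooled ratio was 210 with a 95% counting interval of 57.7 to 1744. Counting intervals and floors cover counting error only.

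Fam19a5 RNA was low in every population. The OFF-BC libraries had 43.6, 55.3 and 100.4 normalized counts, the pan-BC libraries 30.8, 49.4 and 30.6, the blue cone libraries 23.3, 19.0 and 29.6, and the ON-BC libraries 12.4, 22.5 and 22.6. Rods had 1.94, 5.12 and 6.48. OFF-BC overlapped pan-BC, and blue cones overlapped ON-BC, whereas rods lay under all others. The OFF-BC mean of 66.4 ± 30.0 was 3.47 times the ON-BC mean of 19.2 ± 5.87, a log2 difference of 1.70 with a standard error of 0.43.

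Fam19a1 RNA was close to the limit of counting, with at most 36 reads in any library. The OFF-BC libraries had 40.2, 20.4 and 34.2 normalized counts, the pan-BC libraries 24.5, 14.1 and 13.5, and the ON-BC libraries 21.7, 14.7 and 4.10. Rods had 0, 2.05 and 0, and blue cones had 3.01, 0 and 2.96. The bipolar populations overlapped each other and all lay above both photoreceptor populations. The OFF-BC mean of 31.6 ± 10.2 was 2.34 times the ON-BC mean of 13.5 ± 8.84, a log2 difference of 1.37 with a standard error of 0.66. Without ON-BC replicate 3 this difference was 0.74. Against rods the pooled ratio of pan-BC was 25.6, with a 95% counting interval of 6.71 to 217.

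Taking the members side by side, every OFF-BC library lay above every ON-BC library for 4 of 5 members, Fam19a1 being the exception, against 22.6% of all tested genes. Every pan-BC library lay above every rod library for 5 of 5 members, against 46.0% of all genes. Against blue cones, pan-BC lay above for 4 members (42.7% of all genes) and below for Fam19a3 (35.7% of all genes), where the log2 difference was -1.87. Rods lay below blue cones for Fam19a3 and Fam19a5 (30.9% of all genes) and overlapped them for the other members. Nothing is read from these counts, since they use the values on which the family was selected. These comparisons share libraries, since pan-BC, rods and blue cones each enter more than 1 of them.

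Pan-BC, which hold ON and OFF cells together, lay between the separated populations for every member. On the scale of normalized counts, the pan-BC mean stood at 21.3% of the way from the ON-BC to the OFF-BC mean for Fam19a1, 21.7% for Fam19a2, 28.6% for Fam19a3, 22.3% for Fam19a4 and 37.6% for Fam19a5. Among genes listed as OFF markers the same position was 17.2% for Grik1, 18.9% for Erbb4, 23.8% for Nnat, 25.0% for Cabp5 and 33.3% for Tacr3. It was 26.3% for Vsx1, whose mean was higher in ON-BC than in OFF-BC. For ON markers it ran from 12.5% (Trpm1) to 40.8% (Grm6). The gates for ON-BC and OFF-BC need not hold all pan-BC. Lrrtm1, a marker of a type of ON bipolar cell, had a mean of 448 normalized counts in pan-BC, whereas OFF-BC had 79.8 and ON-BC 94.7.

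Cone RNA in the bipolar libraries was examined beside Fam19a3, because this gene was high in blue cones too. The 8 cone genes summed to 31137 to 106239 in OFF-BC, 5565 to 6349 in ON-BC, 45463 to 71865 in pan-BC, 10474 to 10521 in rods and 1485870 to 1701170 in blue cones, and none was at 0 in any population. In OFF-BC, Fam19a3 stood at 78.1% of its blue cone mean, and 7 of the 8 cone genes stood at 0.498% (Cnga3) to 10.5% (Gnat2) and Gngt2, the cone transducin gamma subunit, stood at 52.8%. The OFF-BC library with the highest cone sum, replicate 3 with 106239, had the lowest Fam19a3 count of the 3, with 14542 against 17898 and 16076. In rods, Fam19a3 stood at 0.655% of its blue cone mean, within the 0.477% to 1.17% of the cone genes there. The part of cone RNA in the Fam19a3 level of any bipolar library was not tested.

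Genes whose RNA followed each member over the 15 libraries were ranked by Pearson's r of log2(normalized count + 1). These correlations describe libraries that share populations and carry no test. The 3 genes closest to Fam19a3 were Gngt2 (r = 0.990), Ppm1j, a protein phosphatase (0.990), and Nptx1, a secreted neuronal pentraxin (0.980). Among those closest to Fam19a4 were Vsig2 (0.984) and Erbb4, the neuregulin receptor (0.979), with OFF-BC means of 145 and 300.3 normalized counts. Those closest to Fam19a2 were Prima1, which anchors acetylcholinesterase in membranes (0.994), Adcy8, an adenylyl cyclase (0.993), and Kcnmb4, a subunit of BK potassium channels (0.991). Brinp2 (0.963), Mospd3 (0.959) and Spry1 (0.952) were closest to Fam19a5, and Pcnxl2 (0.958), Dpy19l3 (0.955) and Igdcc3 (0.951) to Fam19a1. Between members, r ran from 0.463 for Fam19a2 and Fam19a3 to 0.912 for Fam19a1 and Fam19a2.

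Ppm1j is also the gene next to Fam19a3. It lies at chr3:104781056-104786018 on the plus strand, head to head with Fam19a3, with 3.51 kb between the start sites. Its normalized counts were 4276, 2875 and 3893 in OFF-BC, 285, 371 and 376 in ON-BC, 1363, 1278 and 1411 in pan-BC, 3187, 3365 and 3396 in blue cones, and 16.5, 28.7 and 14.0 in rods. Like Fam19a3 it was high in OFF-BC and blue cones, lower in ON-BC and lowest in rods. The next genes along the chromosome followed Fam19a3 less closely, with r = 0.715 for Rhoc at 11.49 kb, 0.427 for Mov10 at 40.76 kb and -0.176 for Capza1 at 86.96 kb. The genes nearest to Fam19a2 and Fam19a4 in the same window went the other way, with r = -0.879 for Usp15 against Fam19a2 and -0.777 for Eogt against Fam19a4. That Ppm1j is a neighbour was noticed after its values were seen.

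Open chromatin around the family was examined next, since accessibility was measured in separate libraries and played no part in choosing the members. The populations are the same, however, and the study reports that accessibility and expression of the nearest gene are correlated. The counts of called regions are therefore not free of the choice by RNA. Of 110715 regions in the ATAC-seq table, 54 had a Fam19a gene as the gene with the nearest start site, namely 3 for Fam19a1, 15 for Fam19a2, 10 for Fam19a3, 13 for Fam19a4 and 13 for Fam19a5. The filter on low counts kept 108448 regions and 53 of the 54. A region was called when limma's test against a log2 difference of 1 gave an adjusted p under 0.05 over all regions. Of the 53, 6 were called between OFF-BC and ON-BC (11.3%, against 7.39% of all regions), 38 between pan-BC and rods (71.7%, against 51.6%), 29 between pan-BC and blue cones (54.7%, against 35.9%) and 13 between rods and blue cones (24.5%, against 10.0%). The median log2 difference for OFF-BC minus ON-BC was 0.21 for the 53 and -0.15 for all regions, both with the main scaling. The median of all regions moved to 0.07 with TMM scaling and to 0.14 with scaling by library total. The median of the 53 under these other scalings is not given here.

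**Figure D2:**
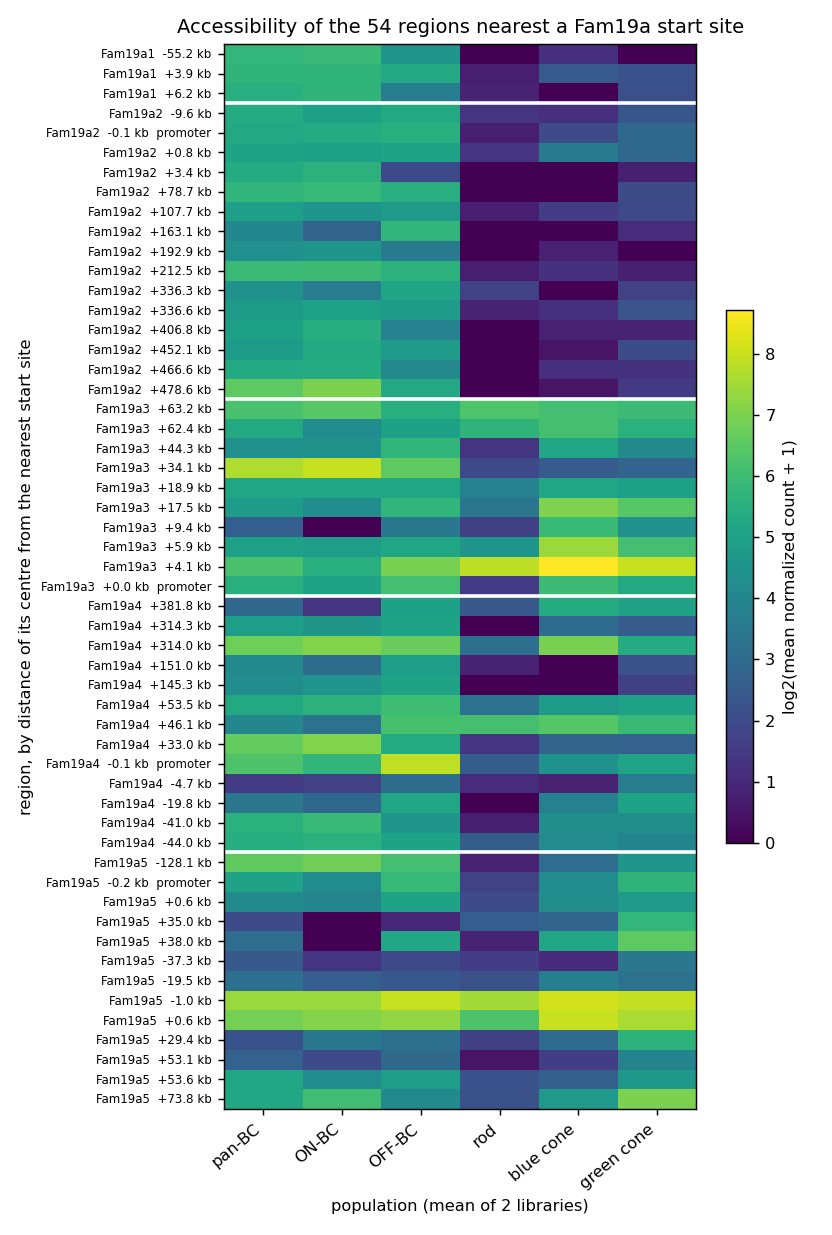
Mean accessibility, as log2(mean normalized count + 1) of 2 libraries, of the 54 regions nearest a Fam19a start site in 6 populations; rows are regions by distance from the nearest start site of the gene, and white lines part the genes. The Fam19a1 and Fam19a2 regions had higher means in pan-BC than in rods, blue cones and green cones, whereas Fam19a3 region 9 at 4.06 kb was highest in blue cones.

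The called regions were then counted for each member. Compared with rods, pan-BC were higher at all 3 regions of Fam19a1 and all 15 of Fam19a2, where 40.3% of all regions were higher and 11.2% lower. Compared with blue cones, they were higher at 3 and 14 of them, where 28.8% of all regions were higher and 7.13% lower. Of the 13 Fam19a4 regions, pan-BC were higher at 10 and lower at 1 against rods, and higher at 4 and lower at 1 against blue cones. Of the 12 Fam19a5 regions tested, pan-BC were higher at 5 against rods, a share near that of all regions, and at 2 against blue cones, a share below it. Of the 10 Fam19a3 regions, 1 was higher and 4 were lower in pan-BC than in blue cones. These differences between members were not tested. Every region called between rods and blue cones was lower in rods, namely 5 of Fam19a3, 4 of Fam19a4 and 4 of Fam19a5, where 8.56% of all regions were lower.

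The per-library peak lists of the study come from the same ATAC-seq libraries, and the regions are centred on peak summits. Their overlaps are thus a description and no separate support. The pan-BC lists held 71698 and 94468 peaks in all, and the rod lists 40829 and 44540. Of the 3 regions nearest the Fam19a1 start and the 15 of Fam19a2, none overlapped a peak in rods or green cones. In blue cones 1 Fam19a2 region overlapped a peak in 1 library, whereas 12 and 15 of the 15 did so in the pan-BC libraries. Among the regions inside Fam19a1 but nearest another start, region 4 overlapped a peak in both blue cone libraries. Regions 4, 5 and 10 overlapped a peak in 1 library of green cones sorted again. For Fam19a3, 7 and 8 of 10 regions overlapped a peak in blue cones, against 4 in each rod library. For Fam19a5, 11 and 7 of 13 regions overlapped a peak in green cones, against 2 in each rod library.

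The Fam19a4 promoter region was the one promoter region of the family called between OFF-BC and ON-BC. It had 279 and 195 normalized counts in OFF-BC, 50.8 and 54.2 in ON-BC, and 73.6 and 82.1 in pan-BC. Rods had 3.12 and 6.78, blue cones 20.7 and 21.7, and green cones 31.5 and 35.2. OFF-BC lay above all other populations, and cones lay above rods. OFF-BC minus ON-BC was 2.13 log2 units (standard error 0.36, limma adjusted p = 0.0393), and pan-BC minus rod was 3.80 (adjusted p = 2.39e-06). The OFF-BC call did not survive the loss of any one library, with an adjusted p of 0.291 without OFF-BC replicate 1, 0.0573 without OFF-BC replicate 2, 0.129 without ON-BC replicate 1 and 0.111 without ON-BC replicate 2. It was also lost with blue and green cones as 1 level of the model (0.0775) and with a pseudocount of 0.5 (0.0570). The ON-BC libraries still had a peak there, although Fam19a4 RNA in ON-BC was 0.408% of that in OFF-BC.

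Another pair of Fam19a4 regions was more accessible in OFF-BC. Region 7, in an intron 46.07 kb into the gene, had 87.6 and 54.5 normalized counts in OFF-BC and 2.99 and 14.6 in ON-BC, a log2 difference of 3.15 (standard error 0.48, limma adjusted p = 0.00576). This region was also open in photoreceptors, with 86.8 and 84.6 in blue cones, 71.7 and 69.1 in rods and 60.7 and 53.5 in green cones, and pan-BC, with 11.2 and 19.4, were lower than rods (log2 difference -2.18, adjusted p = 0.0265). Region 1, lying 381.75 kb from the Fam19a4 start beyond its 3′ end, had 32.3 and 28.2 in OFF-BC, 0 and 2.93 in ON-BC, 47.9 and 35.4 in blue cones, 37.7 and 25.4 in green cones and 6.23 and 2.71 in rods. Its OFF-BC minus ON-BC difference was 3.98 (adjusted p = 0.00520). Without OFF-BC replicate 1 the adjusted p was 0.0930 for region 7 and 0.0511 for region 1, and without ON-BC replicate 1 it was 0.0770 and 0.0562. Region 1 was not called with DESeq2 either (0.0826). Region 3 had the highest mean of the Fam19a4 regions and was not called between OFF-BC and ON-BC (log2 difference -0.33). It had 127 and 82.7 in OFF-BC, 100 and 165 in ON-BC, 122 and 119 in blue cones and 10.9 and 5.42 in rods. Region 8 had the opposite order, with 51.2 and 30.2 in OFF-BC and 122 and 146 in ON-BC (-1.74), and was not called.

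The Fam19a3 promoter region followed the RNA of the gene in the separation of rods from the other populations. It had 70.1 and 66.2 normalized counts in OFF-BC, 67.3 and 57.1 in blue cones, 46.4 and 45.0 in pan-BC, 37.7 and 39.4 in green cones, 35.8 and 27.8 in ON-BC, and 3.89 and 0 in rods. Pan-BC minus rod was 4.40 log2 units (standard error 0.53, limma adjusted p = 1.83e-05), and rod minus blue cone was -4.83 (adjusted p = 3.45e-05). OFF-BC minus ON-BC was 1.08 (standard error 0.53), which did not pass the test (limma adjusted p = 1.0). Peaks were listed there in both pan-BC and both OFF-BC libraries and in no ON-BC or cone library.

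**Figure D3:**
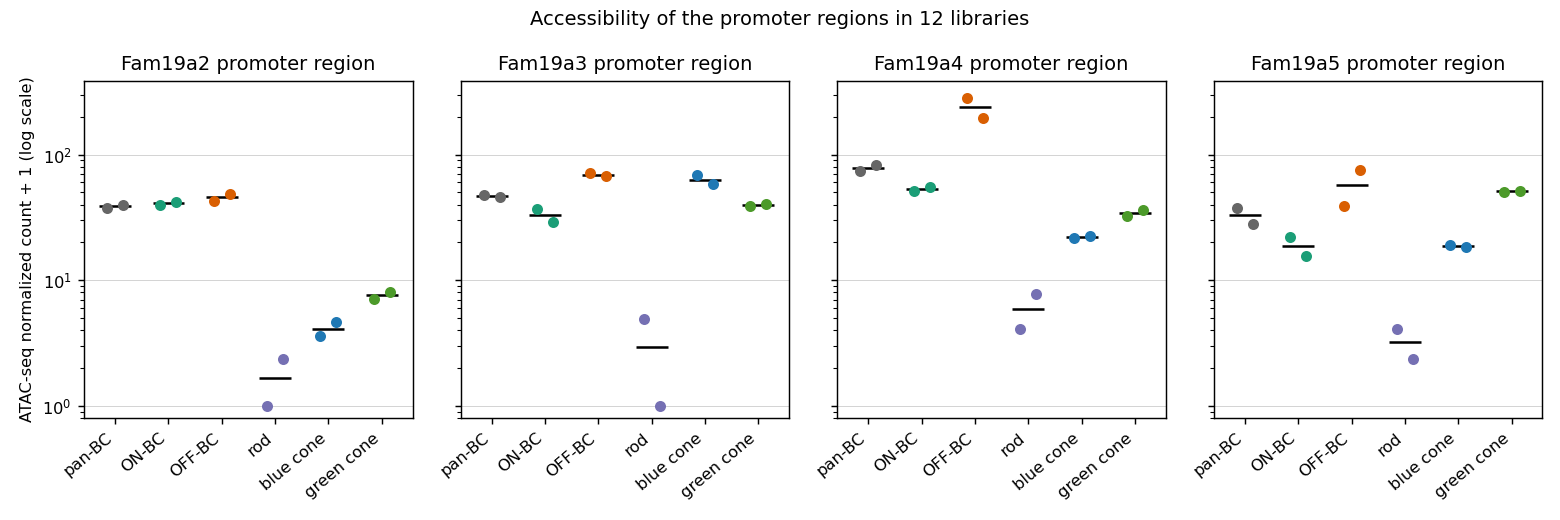
ATAC-seq normalized counts plus 1 (log scale) of the promoter regions of 4 Fam19a genes in 12 libraries; points are libraries and bars are means of 2 libraries. The Fam19a4 promoter region was highest in OFF-BC (279 and 195), and the Fam19a2 promoter region lay between 36.8 and 47.7 in all bipolar libraries.

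Inside and near Fam19a3, cones had the most open chromatin at several sites. The intronic region 9, 4.06 kb from the start, had 421 and 421 normalized counts in blue cones, 255 and 253 in green cones, 235 and 227 in rods, 99.7 and 143 in OFF-BC, 81.6 and 63.9 in pan-BC and 44.8 and 43.9 in ON-BC. Pan-BC were lower there than blue cones (log2 difference -2.53, limma adjusted p = 1.84e-05) and lower than rods (-1.66, adjusted p = 0.00686), and OFF-BC minus ON-BC was 1.41 (adjusted p = 0.242). This region was thus open in rods, where the RNA was at 109 to 157 normalized counts. Region 7, in the noncoding part of an exon 9.41 kb from the start, had 67.3 and 47.0 in blue cones, 13.5 and 6.81 in OFF-BC and no read in ON-BC. OFF-BC was at least 2.29-fold higher than ON-BC at the floor of 3 reads per library (17 reads in OFF-BC, limma adjusted p = 0.0211). That call was lost under 6 of 14 alternatives, with adjusted p of 0.300 with a pseudocount of 4, 0.162 without OFF-BC replicate 1, 0.139 with DESeq2, 0.0716 and 0.0628 without either ON-BC replicate and 0.0547 with blue and green cones as 1 level. Region 4, 34.13 kb beyond the start, was instead a bipolar region, with 276 and 224 in ON-BC, 203 and 209 in pan-BC, 80.8 and 106 in OFF-BC and 1.45 to 7.77 in rods and blue cones.

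At Fam19a2, whose RNA was far higher in OFF-BC, none of the 15 regions was called higher there. The promoter region had 41.8 and 47.7 normalized counts in OFF-BC, 38.8 and 41.0 in ON-BC, 36.8 and 38.8 in pan-BC, 0 and 1.36 in rods and 2.59 and 3.61 in blue cones. OFF-BC minus ON-BC was 0.16 log2 units (standard error 0.58, limma adjusted p = 1.0), beside an RNA difference of 3.75, and pan-BC minus rod was 4.66 (adjusted p = 2.22e-05). Region 7, 163.08 kb into the gene, had 53.9 and 50.6 in OFF-BC and 2.99 and 8.78 in ON-BC and did not pass the test (3.09, adjusted p = 0.0752). Region 4, an intronic site 3.35 kb from the start, was called lower, with 0 and 5.84 in OFF-BC, 41.8 and 52.7 in ON-BC, 42.4 and 37.1 in pan-BC and no read in rods or blue cones (log2 difference -4.20, adjusted p = 0.0157). Its adjusted p was 0.227 without OFF-BC replicate 1, 0.0529 without ON-BC replicate 1, 0.0909 without ON-BC replicate 2 and 0.0632 with DESeq2. Region 15, 478.60 kb from the start and just beyond the gene, had the highest mean of the Fam19a2 regions, with 121 and 132 in ON-BC, 83.2 and 102 in pan-BC and 43.1 and 32.1 in OFF-BC.

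Fam19a5 held the one region, of the 6 called between OFF-BC and ON-BC, whose call stood in every alternative tried. Its intronic region 5, 37.96 kb into the gene, had 37.7 and 35.0 normalized counts in OFF-BC, no read in ON-BC, 9.60 and 5.70 in pan-BC, 74.5 and 113 in green cones, 40.2 and 28.9 in blue cones and 1.56 and 0 in rods. OFF-BC had 64 reads there and was at least 8.20-fold higher than ON-BC at the floor of 3 reads per library, and the limma adjusted p was 3.34e-04. The call held in all 14 alternatives tried. The promoter region of Fam19a5 had 37.7 and 74.0 in OFF-BC, 20.9 and 14.6 in ON-BC, 36.8 and 26.8 in pan-BC, 49.2 and 50.7 in green cones, 18.1 and 17.3 in blue cones and 3.12 and 1.36 in rods. OFF-BC minus ON-BC was 1.54 there (adjusted p = 0.611) and pan-BC minus rod 3.38 (adjusted p = 2.03e-04). Region 8, 1.04 kb before a second annotated start of the gene, was open everywhere, with 157 to 282 in all 12 libraries and no call in the 4 comparisons.

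Some Fam19a5 regions were highest in green cones, a population with no RNA-seq here. Region 4 had 43.0 and 64.8 normalized counts in green cones and at most 7.23 in the other libraries. Region 13 had 87.6 and 166 in green cones, 73.2 and 55.6 in ON-BC and at most 44.0 elsewhere. No test of green cones was planned, and these regions were picked after their values were seen. Green cones sorted again had peaks at both, in 1 of 2 libraries for region 4 and in 2 of 2 for region 13.

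Fam19a1 had no region at its promoter. The region with the highest mean of its 3 was region 2, in an intron 3.90 kb from the start, with 47.1 and 28.2 normalized counts in OFF-BC, 50.8 and 52.7 in ON-BC, 41.6 and 61.6 in pan-BC and at most 7.77 in rods and blue cones. None of the 3 was called between OFF-BC and ON-BC. A further 9 regions lie inside Fam19a1 but nearest to the start of a transcript in its intron, and 2 of these were lower in OFF-BC. Region 11 had 13.5 and 20.4 in OFF-BC and 145 and 180 in ON-BC (log2 difference -3.21, limma adjusted p = 0.0199), and region 6 had 2.69 and 11.7 in OFF-BC and 71.7 and 68.8 in ON-BC (-3.38, adjusted p = 0.0400). Both went against the order of the means of the RNA, and whether these calls stand without single libraries is not given here.

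Short motifs were counted in the 54 regions on both strands. TAATCC was present in 12 (22.2%), against 21.8% of all regions in the table and 5.87% of 16520 promoters. CANNTG was present in 44 (81.5%), against 68.9% of all regions and 48.0% of promoters. TAATTA, the core of Q50 homeodomain sites, was present in 3 (5.56%), against 5.22% of all regions and 1.17% of promoters. Of the sequences printed above, the Fam19a2 promoter region and Fam19a4 region 1 each hold 1 TAATCC, and Fam19a3 region 9 holds none of the motifs. A match is a description of letters and not a site of binding.

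Genes for neurexins, for other reported receptors of the family and for other ligands of neurexins were examined in the same RNA-seq libraries. They are called partner genes below, and the other ligands are listed because they share neurexins with the family. Of 29 such genes in the table, 20 passed the filter. The other 9, Nxph2, Cbln1, Cbln3, Cbln4, C1ql2, Gpr1, Fpr1, Fpr2 and S1pr2, had means of at most 10.2 normalized counts in every population. Among the receptors, Gpr1, Fpr1 and Fpr2 had means of at most 1.35 and S1pr2 of at most 10.2. Lrrc4b, reported as a receptor for Fam19a5, was the one of this group that passed, with 179, 151 and 281 in pan-BC, ON-BC and OFF-BC. Between OFF-BC and ON-BC 7 of the 20 were called, 6 higher and 1 lower, or 35.0% against 6.55% of all genes. All 7 were other ligands of neurexins, and no neurexin or reported receptor was called. The median log2 difference was 0.73, against 0.02 over all genes. Between pan-BC and rods 18 were called (43.6% of all genes) and between pan-BC and blue cones 16 (36.3% of all genes). The list was chosen with earlier results of these data known, and why its shares differ from those of all genes was not tested.

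**Figure D4:**
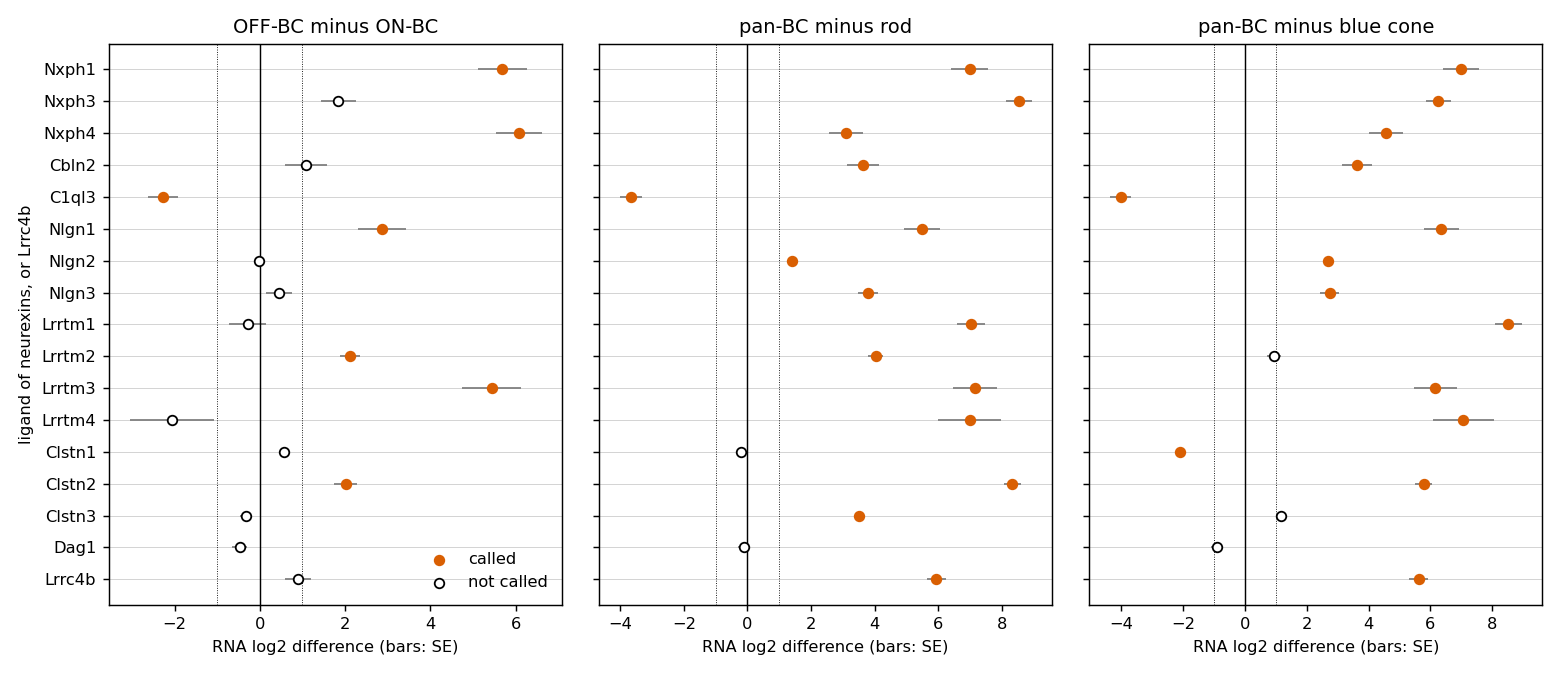
RNA log2 differences, with standard errors, of the ligands of neurexins and of Lrrc4b, for those partner genes that passed the filter, in 3 comparisons; filled points were called by limma against a log2 difference of 1 (dotted lines). Nxph4, Nxph1 and Lrrtm3 stood 5.44 to 6.07 log2 units higher in OFF-BC than in ON-BC, and C1ql3 was lower in bipolar cells than in both photoreceptor populations.

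Among the neurexins, the presynaptic receptors for the secreted ligands, Nrxn3 had means of 17548 normalized counts in OFF-BC, 14476 in ON-BC, 17469 in pan-BC, 8274 in blue cones and 124 in rods. Nrxn2 had 278 in OFF-BC, 193 in ON-BC, 253 in pan-BC, 1.74 in blue cones and 2.12 in rods. Neither was called between OFF-BC and ON-BC, where the log2 differences were 0.52 for Nrxn2 and 0.27 for Nrxn3 with standard errors of 0.49 and 0.18. Both were higher in pan-BC than in rods, by 6.77 and 7.15 log2 units, and Nrxn2 was higher in pan-BC than in blue cones by 6.61.

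Among the other secreted ligands of neurexins, 2 neurexophilins stood with Fam19a2, Fam19a3 and Fam19a4 in being far higher in OFF-BC. Nxph4 had 221, 292 and 302 normalized counts in OFF-BC and 3.10, 6.86 and 1.03 in ON-BC (log2 difference 6.07, limma adjusted p = 2.93e-06). Nxph1 had 260.4, 491 and 416 in OFF-BC and 1.03, 10.8 and 15.4 in ON-BC (5.69, adjusted p = 1.41e-05). Nxph3, with a mean of 690.2 in OFF-BC and 194 in ON-BC, did not pass the test (1.84, adjusted p = 0.302), nor did Cbln2 (1.08). C1ql3, a complement-related ligand, fell in OFF-BC, with 1.12, 2.40 and 4.41 against 12.4, 21.6 and 13.3 in ON-BC (-2.26, adjusted p = 0.0211), and it had means of 214 in rods and 272 in blue cones. The C1ql3 call between OFF-BC and ON-BC was lost under 5 of 15 alternatives, namely a pseudocount of 4 (0.253), DESeq2 (0.135) and the fits without OFF-BC replicate 1 (0.125), OFF-BC replicate 2 (0.0552) or ON-BC replicate 2 (0.118). Nxph1, Nxph3, Nxph4 and Cbln2 were higher in pan-BC than in both photoreceptor populations.

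Of 11 membrane ligands of neurexins, which sit mostly on the postsynaptic side, 4 were called higher in OFF-BC and none was called lower. Of all genes, 3.60% were called higher. Lrrtm3 had 4220, 3472 and 2889 normalized counts in OFF-BC and 66.0, 92.1 and 82.1 in ON-BC (log2 difference 5.44, limma adjusted p = 1.61e-04). Lrrtm2 had 1367, 1439 and 861 against 216, 392 and 245 (2.11, adjusted p = 0.00211), and Clstn2 had 541, 780 and 632 against 135, 181 and 163 (2.01, adjusted p = 0.0147). Nlgn1, a neuroligin of excitatory synapses, had 653, 1111 and 692 against 91.8, 164 and 85.2 (2.86, adjusted p = 0.0349). The Nlgn1 call was lost without any of OFF-BC replicates 1, 2 and 3 (0.0682, 0.164 and 0.0659), ON-BC replicate 1 (0.124) or ON-BC replicate 3 (0.137), with a pseudocount of 0.5 (0.122) and with no filter on low counts (0.0520), and the Clstn2 call without OFF-BC replicate 2 (0.103) or ON-BC replicate 1 (0.0849). Without OFF-BC replicate 2 the number of partner genes called was 4 in place of 7. The abundant Clstn3 (7893 in OFF-BC, 9801 in ON-BC), Clstn1 (4309 and 2918), Nlgn2 (1222 and 1236) and Lrrtm4 (344 and 1445) were not called between OFF-BC and ON-BC. Lrrtm4 was nevertheless lower in every OFF-BC library, with 313, 416 and 305 against 1383, 1765 and 1188 in ON-BC. Its log2 difference was -2.06 with a standard error of 0.99. Nlgn3, Lrrtm1 and Dag1 were not called either, with log2 differences of 0.44, -0.29 and -0.48.

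In photoreceptors the membrane ligands were mostly lower. Against rods, pan-BC were higher for 9 of the 11, beside 27.8% of all genes, and against blue cones for 7, beside 22.7%. Clstn1 was lower in pan-BC than in blue cones (log2 difference -2.08), with means of 2957 and 12541 normalized counts. Dag1, the dystroglycan precursor gene, was called in neither comparison, with means of 730.4 in blue cones, 428 in rods and 394 in pan-BC.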

How the data were processed

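RNA-seq (SMARTer Ultra Low kit, which does not mark strand) and ATAC-seq of sorted mouse retinal populations were analysed from processed files. The authors aligned RNA-seq reads with STAR 2.7.0d to mm10, counted them per gene with HTSeq 1.9 and deposited the signal values used here, counts divided by 1 size factor per library. They aligned ATAC-seq reads with Bowtie2, processed them with SAMtools and Picard 2.19.0, kept short nucleosome-free fragments and called peaks per library, not on pooled libraries, with MACS2 2.1.1, and the region table is likewise deposited as normalized signal. The deposited peak lists give a fold enrichment ratio and a −log10 q-value. HOMER 4.8 and bedtools 2.24.0 are also named. The submitters' processing notes give Bowtie2 2.2.5 and SAMtools 1.3, whereas the study's methods give other versions of these 2 tools. Whole reads came out of every value of both tables within 0.01 of a whole number, which gave the depth of each library.

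Values were tested as log2(normalized count + 1) with limma 3.58.1 in R 4.3.3 (treat against a log2 difference of 1, trend, Benjamini-Hochberg adjustment over all features, 0.05), in 1 model over all 15 RNA-seq or all 12 ATAC-seq libraries, without a replicate block. edgeR's filter on recovered reads kept 14024 genes and 108448 regions. Replicates are those the labels name. The p-values measure the spread between these samples. Alternatives on the recovered reads were edgeR 4.0.16 and DESeq2 1.42.0. A region belonged to the gene with the nearest RefSeq start site, and a promoter region had its centre from 1000 bp before to 100 bp after the start. Figures and summaries used Python 3.11.15.

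The members and all gene lists were chosen with earlier results of these data known. Named are all members, partner genes called in a comparison or with a mean of 1000 or more in a bipolar population, the 3 genes most correlated with each member, and regions called, at promoters or of the highest mean, apart from 2 genes that are not reported here. Regions called against photoreceptors, and between rods and blue cones, are given mostly as counts. Marker lists are those whose sums the text prints.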

Additional observations from a re-analysis of the deposited data

How the results depend on the processing

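The counts of Fam19a regions called between OFF-BC and ON-BC depended most on the setting, with 6 as reported, 3 with DESeq2, 18 with edgeR's F test with a fitted fold, and 1 to 5 when single libraries were left out (1 without OFF-BC replicate 1, 2 without ON-BC replicate 1 and 3 without ON-BC replicate 2). Between rods and blue cones 13 regions became 22 with edgeR's F test and 8 to 11 without single libraries (8 without blue cone replicate 1). A population left with 1 library was assumed to vary like the others. In place of regions by nearest start, those inside the genes or up to 1000 bp upstream gave 7 calls between OFF-BC and ON-BC. Of these, 4 were higher and 3 lower in OFF-BC, against 5 and 1 in the main count. Regions called between pan-BC and rods numbered 31 to 42 over all alternatives, and 23 to 36 between pan-BC and blue cones. Partner genes called between OFF-BC and ON-BC numbered 4 without OFF-BC replicate 2, 4 to 6 without single libraries and 4 to 10 over all alternatives. The cause of these changes was not tested, apart from the smaller number of samples in fits without a library. With the replicate block the counts were 7, 18 and 16 partner genes and 6, 38, 28 and 13 regions, so the block moved no count by over 1.5 times, and it changed no named call between OFF-BC and ON-BC. Same-numbered OFF-BC and ON-BC libraries came from mice of the same age per the labels (43, 48 and 42 days for RNA-seq, 42 and 46 for ATAC-seq), which do not say whether they were sorted from the same retinas. Over genes, their deviations from the group means correlated at -0.08, 0.22 and -0.06, and the main model did not pair them. No called difference changed sign, nor did an RNA difference of a member between groups that did not overlap. Fam19a4 rod minus blue cone, where the libraries overlapped, was 0.14 log2 units and became -0.46 without blue cone replicate 3, -0.18 without rod replicate 3, -0.01 with DESeq2 and -0.02 with edgeR. The number of members with OFF-BC over ON-BC by more than 1 log2 unit was 5, or 4 without ON-BC replicate 3. The log2 difference of Fam19a2 between pan-BC and rods ran from 4.77 to 9.72 with the pseudocount and the tool, since rods had no read. How far depth limits the differences at regions of few reads was not tested.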
